A study of Mus musculus with 10 samples.

Results

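The genes that load peptides onto MHC class II molecules were followed across all 10 RNA-seq libraries of an intestinal organoid series. The set was chosen by name and holds 7 of the 47069 genes in the table: H2-Aa, H2-Ab1 and H2-Eb1, which encode chains of the class II molecule, H2-DMa and H2-DMb1, Cd74, and Ciita. All 7 had counts in every library and passed the filter on low counts. The mice behind the organoids carried Lgr5-EGFP-CreERT2 and Ppp2r1a flox/flox, in which a tamoxifen-inducible Cre is driven by Lgr5 and so acts in crypt stem cells, and the floxed gene encodes the scaffold subunit of the phosphatase PP2A. The organoids were grown in Matrigel with Noggin, EGF and R-spondin 1 for 50 days. Controls carried the same alleles and received saline; the other groups received the carcinogen DMBA, in a set labelled Long, tamoxifen labelled Dosage-sensitive, in a set labelled short (TAM short) or Long (TAM long), or DMBA with tamoxifen, with neither word (DMBA+TAM). Each of the 5 groups had 2 libraries. All carry the strain label C57BL/6, the age of the mice that gave these organoids is not given in the sources used here, and what short, Long and Dosage-sensitive refer to is not stated. No label says that replicates were separate cultures or animals, so every p-value measures only the spread between these libraries, which may be technical.

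MHC class II molecules are pairs of an alpha and a beta chain that carry peptides from endosomes to the cell surface, where CD4+ T cells read them. H2-Aa and H2-Ab1 encode the alpha and beta chain of the I-A molecule, and H2-Eb1 encodes the beta chain of I-E, whose alpha chain comes from H2-Ea. Cd74 is the invariant chain, which fills the groove until H2-DM, the pair made by H2-DMa and H2-DMb1, helps exchange its last fragment for peptide. Ciita is the coactivator that switches these genes on. Dendritic cells, B cells and macrophages express them constitutively or on activation, while intestinal epithelium can be induced to express them by interferon-gamma.

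The DMBA+TAM libraries stood apart in depth and in cell type markers. They held 1592366 and 1915270 counts, against 8828247 to 10923673 in the other 8, so that 3 counts correspond to 1.58 and 1.32 normalized CPM there and to 0.258 to 0.378 elsewhere. Normalized CPM are counts scaled by the total of the library after TMM correction. The summed level of 8 epithelial markers was 21.1 and 31.6 normalized CPM in DMBA+TAM and 12600 to 21140 in the other libraries, and Epcam had 3 counts in each DMBA+TAM library against 14305 to 26911. The label intestinal organoid is thus not borne out by epithelial markers in these libraries. Ptprc, which marks leukocytes, had 156 to 639 counts in the other 8 libraries, so these also held RNA of cells that are not epithelial. In bulk RNA, more cells of a type and more RNA per cell cannot be told apart. Library titles use other words than the treatment labels by which the groups are named: NS for control, NL for DMBA, DSS_S for TAM short, DSS_L for TAM long and Lgr5 for DMBA+TAM. What each group received thus rests on the treatment label alone. Across all genes tested, 2.70% differed between TAM long and DMBA and 14.3% between TAM short and control, against 46.0% between TAM long and control.

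The counts of a neighbouring gene went against the strain label. H2-Ea-ps (ENSMUSG00000036322, chr17:34342933-34344643 of GRCm38, minus strand) is the I-E alpha chain gene, annotated as a polymorphic pseudogene. As background, the C57BL/6 haplotype carries a deletion of its promoter and makes no RNA from it. Control libraries held 29 and 41 counts of it, DMBA libraries 15 and 43, TAM short 100 and 102, TAM long 47 and 35, and both DMBA+TAM libraries 0. With 3 counts per library taken as the limit for DMBA+TAM, it was at least 2.58-fold higher in TAM long, 2.83-fold in control and 8.32-fold in TAM short. In DMBA no bound is given, since replicate 1, at 1.34 normalized CPM, lay under the limit of 1.45. Reads of all libraries were mapped to the C57BL/6 reference, and MHC class II genes differ in sequence between haplotypes. The part of haplotype in any result on these libraries was not tested.

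Class II genes share a promoter module, an X box followed by a Y box, on which the RFX, CREB and NF-Y factors assemble and recruit Ciita. It is shown here because the genes of the set moved together in most libraries. No RefSeq promoter was found for H2-Ab1 and Ciita. Those of H2-Aa, H2-Eb1, H2-DMb1 and H2-DMa (GRCm38.p6, 250 bases before to 50 after the start) are described here. They were searched on both strands for CTNGNAAC, a core of the X box, and TGATTGG, a core of the Y box whose other strand reads CCAATCA. The letters were chosen with these promoters in view. The X core was found in 13.2% and the Y core in 7.82% of all 32851 promoters. Both in this order on the gene's strand, 10 to 40 bases apart, were found in 0.0457%, which is 15 promoters of 13 genes, and 4 of these genes are class II genes. Cd74 is not among the 13 genes, and its promoter is not shown. Because the letters were chosen on these promoters, the share only describes how rare they are and is no support for a shared module. The stretches read, 5′ to 3′ with the cores in capitals:
H2-Aa (chr17:34287855-34287919, minus strand): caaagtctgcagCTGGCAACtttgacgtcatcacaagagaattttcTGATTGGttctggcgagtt
H2-Eb1 (chr17:34305761-34305824, plus strand): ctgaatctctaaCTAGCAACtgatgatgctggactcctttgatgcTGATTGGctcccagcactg
H2-DMb1 (chr17:34153082-34153146, plus strand): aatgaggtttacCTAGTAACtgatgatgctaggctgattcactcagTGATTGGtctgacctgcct
The cores were 26 bases apart in H2-Aa, 25 in H2-Eb1 and 26 in H2-DMb1. In H2-Ob, a chain of the DM inhibitor H2-DO that is not among the 7 genes, they were 23 apart, while the RefSeq promoters of H2-Eb2, H2-DMb2 and H2-Oa, also class II genes outside the set, did not hold the pair. The 2 RefSeq promoters of H2-DMa (chr17:34122582-34122881 and chr17:34125268-34125567) did not hold the pair, but both lie upstream of the start listed for the gene in the table, and the stretch at that start was not searched.

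Of the 7 genes, 5 lie within 181.0 kb of chromosome 17 in the major histocompatibility complex. On GRCm38, H2-DMa (ENSMUSG00000037649) spans chr17:34135182-34139101, H2-DMb1 (ENSMUSG00000079547) chr17:34153072-34160230, H2-Ab1 (ENSMUSG00000073421) chr17:34263209-34269418 and H2-Eb1 (ENSMUSG00000060586) chr17:34305877-34316199, all on the plus strand. H2-Aa (ENSMUSG00000036594) spans chr17:34282744-34287827 on the minus strand. Ciita (ENSMUSG00000022504) lies at chr16:10488178-10527564 and Cd74 (ENSMUSG00000024610) at chr18:60803848-60812646, both on the plus strand. All values are sums over exons. Ciita overlaps Dexi on the other strand, which had at most 202 counts in a library, and the library kit is not stated to keep strand, so their reads may be mixed. Of the words of 50 bases in the H2-DMb1 transcript, 27.2% also occur in its neighbour H2-DMb2, so reads could be split or lost between both, whereas 0 such words of H2-Aa, H2-Ab1, H2-Eb1, H2-DMa and Cd74 occur in another gene.

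In control organoids the 7 genes covered a wide range of levels. On the deposited FPKM scale, which divides by gene length, Cd74 was the highest with 494 ± 28.9 (SD, n = 2, as for all means here), followed by H2-Ab1 with 88.9 ± 8.50 and H2-DMa with 35.2 ± 2.63. H2-DMb1 was at 14.4 ± 2.23 and H2-Aa at 8.57 ± 0.164. H2-Eb1 reached 4.63 ± 1.33 and Ciita, as a regulator, 2.81 ± 0.446. The 2 chains of the I-A molecule were thus listed at unequal levels, with H2-Aa at 0.105 and 0.0890 of H2-Ab1 in the control libraries.

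TAM short organoids had the highest level of 5 of the 7 genes among all groups, and higher values than control for the whole set. The regulator Ciita had 19.1 and 15.7 normalized CPM in control and 55.9 and 69.3 in TAM short. It rose by 1.84 ± 0.31 (SE) on the log2 scale, or 3.59-fold (adjusted p = 0.00421, edgeR quasi-likelihood test with Benjamini-Hochberg adjustment over 16179 genes, as for all adjusted p-values here). Both TAM short libraries lay far above both controls and above the remaining 6 libraries.

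Cd74 had 728 and 818 normalized CPM in control and 1753 and 1837 in TAM short. The invariant chain rose 2.32-fold (log2 1.21 ± 0.35, adjusted p = 0.0487, edgeR). On the FPKM scale it was the highest of the 7 in every library.

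Among the chains, H2-Ab1 had 75.6 and 89.5 normalized CPM in control and 198 and 196 in TAM short, a rise of 2.38-fold (log2 1.25 ± 0.32, adjusted p = 0.0298, edgeR). H2-Eb1 had 5.08 and 7.93 in control and 29.8 and 29.0 in TAM short. The I-E beta chain thus had the largest rise of the 7, 4.52-fold (log2 2.18 ± 0.37, adjusted p = 0.00422, edgeR). H2-Aa had 8.24 and 8.29 in control and 20.2 and 18.5 in TAM short. Its log2 fold change of 1.23 ± 0.37 missed the threshold (adjusted p = 0.0533, edgeR). With replicate number added to the fit as a block, all 7 genes were called, H2-Aa among them, where 14.4% of all genes tested were.

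The peptide exchange pair behaved similarly. H2-DMa had 42.6 and 49.0 normalized CPM in control and 107 and 121 in TAM short, a rise of 2.49-fold (log2 1.31 ± 0.29, adjusted p = 0.0151, edgeR). H2-DMb1 had 19.4 and 16.1 in control and 34.9 and 36.1 in TAM short. Its log2 fold change of 1.00 ± 0.31 did not pass (adjusted p = 0.0636, edgeR), though it did with replicate number as a block.

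In all, 5 of the 7 genes were called higher in TAM short than in control, where 6.52% of all genes tested were called higher, and 0 were called lower, where 7.80% were. The median log2 fold change of the 7 was 1.25, beside -0.04 for all genes. With any one of the 4 libraries left out, 1 or 2 of the 7 passed, where 3.91% to 6.19% of all genes tested did, while each gene kept its direction in each of its 12 alternatives.

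**Figure D1:**
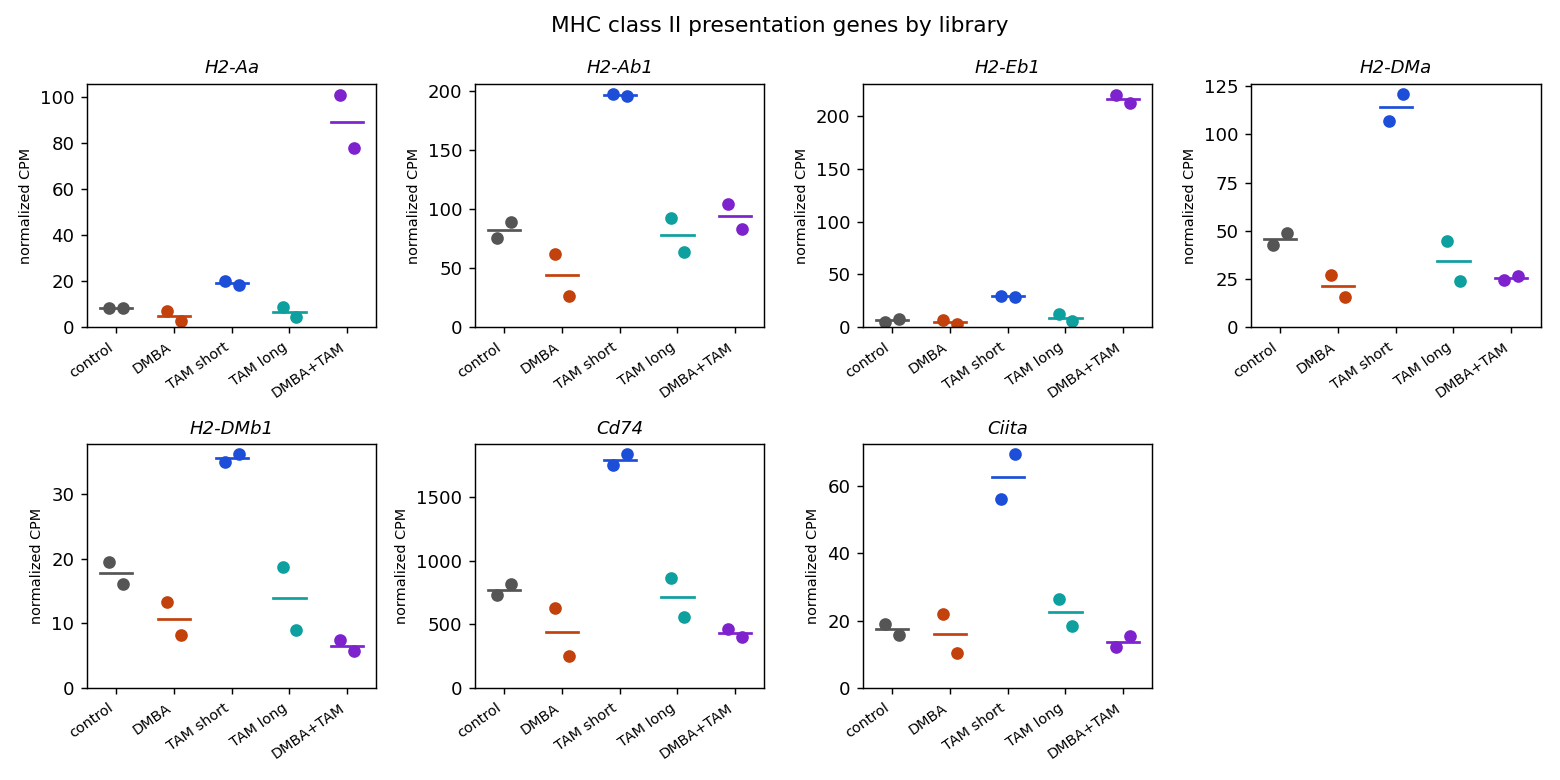
Normalized CPM (vertical axis, starting at 0) of the 7 class II presentation genes in each library, with 2 points per group and a line at the group mean. TAM short is the highest group for 5 genes; for H2-Aa and H2-Eb1 the DMBA+TAM libraries lie above all others, at 77.8 to 101.1 and 212 to 220.

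Genes of interferon-gamma signalling, the pathway that induces Ciita in cells that do not present antigen by profession, were examined as a list of 11. Of these, 6 were called higher in TAM short than in control, where 6.52% of all genes tested were, and 0 lower. Leaving out either control library, or TAM short replicate 2, left 3 calls, and without TAM short replicate 1 there were 4. One of the 6 is Ifng, which passed the filter on low counts only through TAM short and so had to differ; its call is no support, and 5 calls among the other 10 genes remain. Ifng itself, the ligand, was at 0 and 1 counts in the control libraries, 1 and 3 in DMBA, 23 and 27 in TAM short, 2 and 0 in TAM long, and 0 in both DMBA+TAM libraries. It was at least 8.57-fold higher in TAM short than in control, with 3 counts per library as the limit for control. The receptor subunit gene Ifngr1 rose by 0.50 ± 0.12 on the log2 scale (adjusted p = 0.0248, edgeR).

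Irf1, a transcription factor that acts on the Ciita promoter, had 217 and 229 normalized CPM in control and 535 and 473 in TAM short (log2 1.18 ± 0.12, adjusted p = 0.000242, edgeR). Socs1, a feedback inhibitor of the pathway, had 5.53 and 6.01 in control and 23.9 and 22.3 in TAM short (log2 2.00 ± 0.26, adjusted p = 0.00104, edgeR). The GTPase gene Gbp2 and the chemokine gene Cxcl9 rose by 1.82 ± 0.27 and 1.30 ± 0.32 on the log2 scale (adjusted p = 0.00227 and 0.024, edgeR).

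Cd274, which encodes the inhibitory ligand PD-L1, had 10.9 and 24.0 normalized CPM in control and 93.9 and 95.9 in TAM short. It was the only one of the 5 costimulation genes tested that was called higher in TAM short (log2 2.44 ± 0.35, adjusted p = 0.00181, edgeR), while Cd80, Cd86, Cd40 and Icosl were not called.

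The median log2 fold change of 10 class I presentation genes in TAM short against control was 0.09, beside 1.25 for the class II set. Of these 10 genes edgeR called 0, where 14.3% of all genes tested were called, so 0 of 10 lies near that share. An unadjusted p under 0.05 was seen for 1 in edgeR, and DESeq2 called 1. H2-D1, a class I heavy chain, had 3104 and 3582 normalized CPM in control and 4493 and 4539 in TAM short (log2 0.43 ± 0.15, adjusted p = 0.088, edgeR). Nlrc5, the class I counterpart of Ciita, was not called either, at 0.63 ± 0.28 on the log2 scale (adjusted p = 0.175, edgeR). Whether the change of both pathways differed was not tested. The partners of Ciita on the promoter module, Rfx5, Rfxank, Rfxap, Nfya, Nfyb, Nfyc and Creb1, were a list of 7. Of these, edgeR and DESeq2 called 0, which also lies near the share of all genes. An unadjusted p under 0.05 was seen for 1 in edgeR, and log2 fold changes ran from -0.27 to 0.19.

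**Figure D2:**
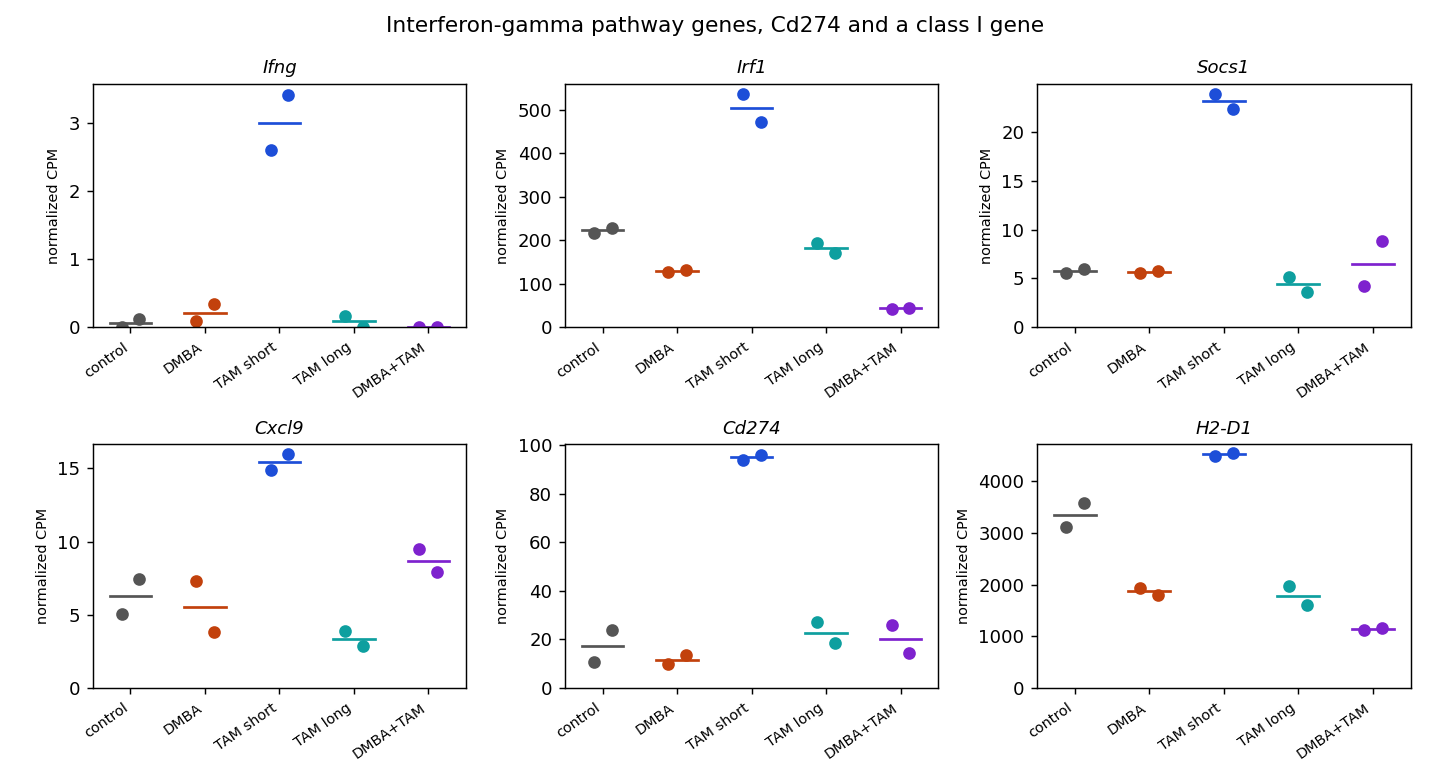
Normalized CPM (vertical axis, starting at 0) of Ifng, Irf1, Socs1, Cxcl9, Cd274 and the class I gene H2-D1 in each library, with 2 points per group and a line at the group mean. Both TAM short libraries are the highest for all 6 genes, although H2-D1 was not called against control.

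Summed levels of lymphocyte markers were also higher in TAM short than in control, though edgeR called few of the genes. The summed level of 8 T cell markers was 91.8 and 99.1 normalized CPM there, 45.0 and 54.6 in control, and 10.99 to 23.8 in the other groups. Of the 7 T cell markers tested, 2 were called higher than in control, Cd4 (log2 2.24 ± 0.30) and Cd5. The latter had 7 and 8 counts in control and 86 and 104 in TAM short, and passed the filter only through TAM short, so its call is no support. Of 5 leukocyte markers, Ptprc and Coro1a were called higher, with a summed level of 240 and 270 in TAM short against 67.2 and 127 in control. DESeq2 called 4 of the 5 and all 5 had an unadjusted p under 0.05 in edgeR, while with any one library left out 0 or 1 passed. The macrophage list had a summed level of 228 and 269 in TAM short and 164 and 183 in control, and 3 of its 10 genes were called higher, or 0 or 1 with any one library left out. The dendritic cell list had 20.02 and 22.1 against 10.5 and 12.5, with 0 of 9 called by edgeR or DESeq2 and 5 at an unadjusted p under 0.05. Fibroblast markers went the other way, with sums of 782 and 653 in TAM short against 1413 and 1294 in control and 4 of 8 called lower, as were 2 of 6 endothelial markers. With any one library left out, these counts were 2 to 4 and 0 to 2. Of all genes tested, 6.52% were called higher and 7.80% lower in TAM short than in control. No gene of the T cell list was at 0 in control or TAM short. The part of these cells in the rise of the class II genes was not tested.

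B cells, which present on class II constitutively, can be set beside the members library by library. Of 8 B cell markers, 0 were called between TAM short and control by edgeR or DESeq2, and 0 had an unadjusted p under 0.05. Of all genes tested, edgeR called 14.3% there. They summed to 97.2 and 98.2 normalized CPM in TAM short, but also to 111 in DMBA replicate 2 and 50.6 in control replicate 2, while DMBA replicate 1 had 5.88 and control replicate 1 had 8.12. The class II set summed to 322 in DMBA replicate 2, the lowest of all libraries, and to 766 in DMBA replicate 1. In control it summed to 1005 in replicate 2 and 898 in replicate 1. The 5 class II chain genes outside the set summed to 32.6 in DMBA replicate 2 and 15.1 in replicate 1; among them H2-Ob, which is typical of B cells, had 67 and 3 counts. The part of B cells in the class II values was not tested.

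TAM long and DMBA organoids did not share the rise. Between TAM long and control 0 of the 7 genes were called by edgeR, where 46.0% of all genes tested were called; 0 of the 7 had an unadjusted p under 0.05 and DESeq2 also called 0. The log2 fold changes ran from -0.40 ± 0.29 for H2-DMa to 0.50 ± 0.38 for H2-Eb1. Without TAM long replicate 1, 2 of the 7 passed, where 32.8% of all genes tested did. Ciita had 26.4 and 18.5 normalized CPM in TAM long and Cd74 had 869 and 558, which overlap with or lie near the control values.

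Against TAM short, all 7 genes were lower in TAM long, where 20.3% of all genes tested were called lower. The log2 fold changes ran from -1.33 ± 0.32 for H2-Ab1 to -1.72 ± 0.29 for H2-DMa, a fall of 3.28-fold (adjusted p = 0.00134, edgeR). Ciita fell 2.78-fold (adjusted p = 0.00375, edgeR) and Cd74 2.51-fold (adjusted p = 0.0138, edgeR). Without TAM long replicate 2, 4 of the 7 passed, where 26.6% of all genes tested did. Of the interferon-gamma list, 8 of 11 were lower in the same comparison. Ifng is among them but passed the filter on low counts only through TAM short, so its call is no support. All 10 class I genes were lower too, with a median log2 fold change of -1.41, beside -1.47 for the class II set. Against control, however, all 10 class I genes were lower in TAM long (median -1.35, beside -0.12 for the class II set). Of all genes tested, 46.0% were called in either direction there. In DMBA 8 of 10 were lower than in control (median -0.95, beside -0.72), where 23.3% of all genes tested were.

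By normalized CPM, DMBA organoids had the lowest mean of each of the 7 genes outside DMBA+TAM, with a wide gap between their 2 libraries. H2-DMa had 27.0 and 15.6 normalized CPM in DMBA and 42.6 and 49.0 in control, a fall of 2.14-fold (log2 -1.10 ± 0.30, adjusted p = 0.0129, edgeR). H2-Ab1 had 62.1 and 26.8 against 75.6 and 89.5, a fall of 1.85-fold (log2 -0.89 ± 0.33, adjusted p = 0.0467, edgeR). Of the 7 genes these 2 were called lower, where 23.3% of all genes tested were. Cd74 was at 627 and 255 and Ciita at 21.8 and 10.3, and neither was called in the main fit. With replicate number added to the fit as a block, 4 of the 7 were called, where 47.2% of all genes tested were. Every gene was 1.62 to 2.46 times higher in replicate 1 than in replicate 2. Without DMBA replicate 2, 0 of the 7 were called, where 43.5% of all genes tested were in either direction, and without DMBA replicate 1, 6 were, where 39.2% of all genes were.

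TAM short was above DMBA for all 7 genes, where 21.8% of all genes tested were higher, with folds from 3.29 for H2-DMb1 to 5.34 for H2-Eb1. All 7 stayed higher whichever library was left out, but the folds moved. Log2 fold changes then ran from 1.43 to 2.14 for H2-DMb1 (main value 1.72) and 2.01 to 3.1 for H2-Eb1 (2.42). They ran from 1.45 to 2.75 for H2-Aa (1.91), 1.67 to 2.9 for H2-Ab1 (2.14) and 1.53 to 2.84 for Cd74 (2.02). Between TAM long and DMBA 0 of the 7 were called, where 2.70% of all genes were. There, 2 genes, H2-Ab1 and H2-DMa, had an unadjusted p under 0.05 in the edgeR fit, DESeq2 called 0, and 3 genes passed without DMBA replicate 1, where 6.11% of all genes did.

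**Figure D3:**
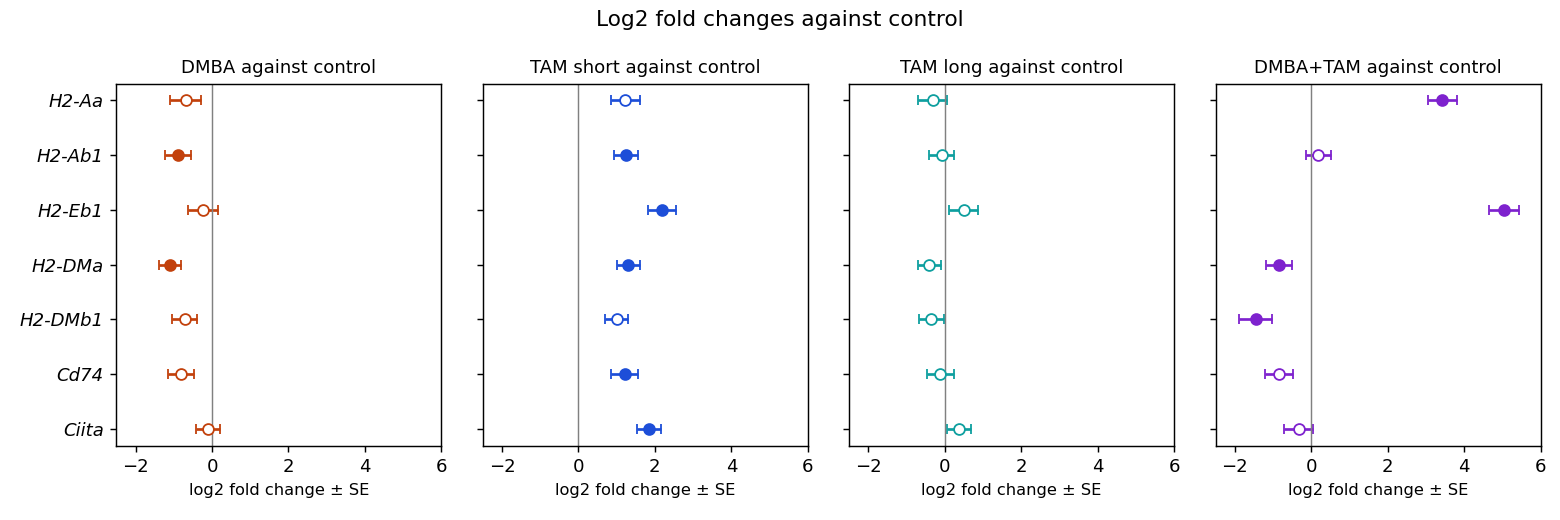
Log2 fold changes with their standard errors (horizontal axis) of the 7 genes against control in the edgeR fit, one panel per group; filled points passed an adjusted p of 0.05. All 7 points lie above 0 in TAM short, while in DMBA+TAM H2-Aa (3.43) and H2-Eb1 (5.05) lie far to the right of the other 5.

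Across the 8 libraries other than DMBA+TAM the 7 genes moved as a unit. The correlation of log2 normalized CPM between pairs of genes ran from 0.90 to 1.00, with a median of 0.94 over 21 pairs; these points share groups and library depth, and no test was made. In TAM long each gene was 1.43 to 2.11 times higher in replicate 1, as in DMBA, whereas in control and TAM short the ratios of replicate 1 to 2 lay on both sides of 1, from 0.640 to 1.21 and from 0.807 to 1.09. Over all 10 libraries the correlations ran from -0.25 to 0.98 with a median of 0.67. H2-Aa and H2-Eb1 then followed each other (0.98) but not Cd74 (0.08 and 0.02) or Ciita (0.06 and 0.05), whereas H2-DMa and Cd74 remained at 0.97.

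In DMBA+TAM the set split. H2-Eb1 had 220 and 212 normalized CPM, against 5.08 and 7.93 in control, 7.31 and 3.48 in DMBA and 12.4 and 5.88 in TAM long. It was 33.2-fold higher than in control (log2 5.05 ± 0.39, adjusted p = 1.9e-06, edgeR), 39.2-fold higher than in DMBA and 23.4-fold higher than in TAM long. Leaving out a library gave log2 fold changes of 4.86 to 5.95 against DMBA (main value 5.29). Against TAM long these were 4.11 to 5.17 (main value 4.55). Although the DMBA+TAM libraries held far fewer counts in all, they held 417 and 482 counts of this gene and the control libraries 45 and 66.

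H2-Aa had 101.1 and 77.8 normalized CPM in DMBA+TAM and 2.91 to 20.2 in all other libraries. It was 10.8-fold higher than in control (log2 3.43 ± 0.38, adjusted p = 2.65e-05, edgeR), 17.4-fold higher than in DMBA and 13.4-fold higher than in TAM long. Leaving out a library gave log2 fold changes of 3.62 to 4.93 against DMBA (main value 4.12). The alpha chain of I-A and the beta chain of I-E were therefore the genes that stood out.

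The beta chain of I-A did not follow. H2-Ab1 had 105 and 83.5 normalized CPM in DMBA+TAM, within or near its control values of 75.6 and 89.5 (log2 0.19 ± 0.33, adjusted p = 0.647, edgeR). Cd74 had 464 and 398, with a log2 fold change of -0.84 ± 0.36 against control that was not called (adjusted p = 0.0604, edgeR). Ciita had 12.1 and 15.4 from 23 and 35 counts (log2 -0.33 ± 0.38, adjusted p = 0.47, edgeR).

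The DM genes were lower. H2-DMb1 had 7.38 and 5.72 normalized CPM, from 14 and 13 counts, and fell 2.73-fold against control (log2 -1.45 ± 0.43, adjusted p = 0.014, edgeR). H2-DMa had 24.8 and 26.4 and fell 1.79-fold (log2 -0.84 ± 0.33, adjusted p = 0.0487, edgeR). Scaling by library size only moves the median of all genes by 0.49 in this comparison, and under it, as with counts thinned to the smallest total, neither DM gene was called. In all, 2 of the 7 were called higher than in control, where 29.0% of all genes tested were, and 2 lower, where 35.3% were.

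The other comparisons of DMBA+TAM gave the same pair. Against TAM long, 2 of the 7 were higher, H2-Aa and H2-Eb1, where 25.3% of all genes were, and 0 were lower, where 29.9% were, with 1 gene lower at an unadjusted p under 0.05 (H2-DMb1, edgeR). Against DMBA, 3 were higher, where 25.2% were, with H2-Ab1 as the third (2.11-fold, adjusted p = 0.0219, edgeR). With a library left out, the log2 fold change of H2-Ab1, 1.07, ran from 0.58 to 1.81. Against TAM short, H2-Aa (4.61-fold) and H2-Eb1 (7.34-fold) were higher, where 29.3% of all genes were, and the other 5 were lower, where 33.8% were, from H2-Ab1 (2.09-fold) to H2-DMb1 (5.46-fold). These comparisons share the DMBA+TAM libraries. The interaction of DMBA and TAM long asks whether DMBA+TAM departs from the sum of both groups. DMBA and TAM long carry the word Long, and control and DMBA+TAM do not. Whatever Long stands for therefore cannot be told apart from a joint effect of the treatments. The interaction was called for the same 2 genes, where 48.2% of all genes were. It was 4.43 ± 0.54 for H2-Aa (adjusted p = 0.000112, edgeR) and 4.79 ± 0.54 for H2-Eb1 (adjusted p = 5.99e-05, edgeR) on the log2 scale.

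Ratios within a library, which need no scaling between libraries, showed the split most plainly. On the FPKM scale, H2-Aa was 0.0665 to 0.110 of H2-Ab1 in 8 libraries, TAM short included, and 0.927 and 0.895 in DMBA+TAM. H2-Eb1 was 0.0445 to 0.0998 of H2-Ab1 in the 8 libraries and 1.39 and 1.68 in DMBA+TAM. The ratio of Cd74 to H2-Ab1 was 5.19 to 5.98 in the 8 libraries, and 2.62 and 2.82 in DMBA+TAM. In TAM short the ratios of H2-Aa and Cd74 lay within the range of the other organoid libraries, and that of H2-Eb1 was the highest of the 8 libraries, while DMBA+TAM lay outside the range of the 8 for each of the 3 ratios. H2-DMa to H2-DMb1 was 1.81 to 3.19 in the 8 libraries and 3.19 and 4.39 in DMBA+TAM.

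**Figure D4:**
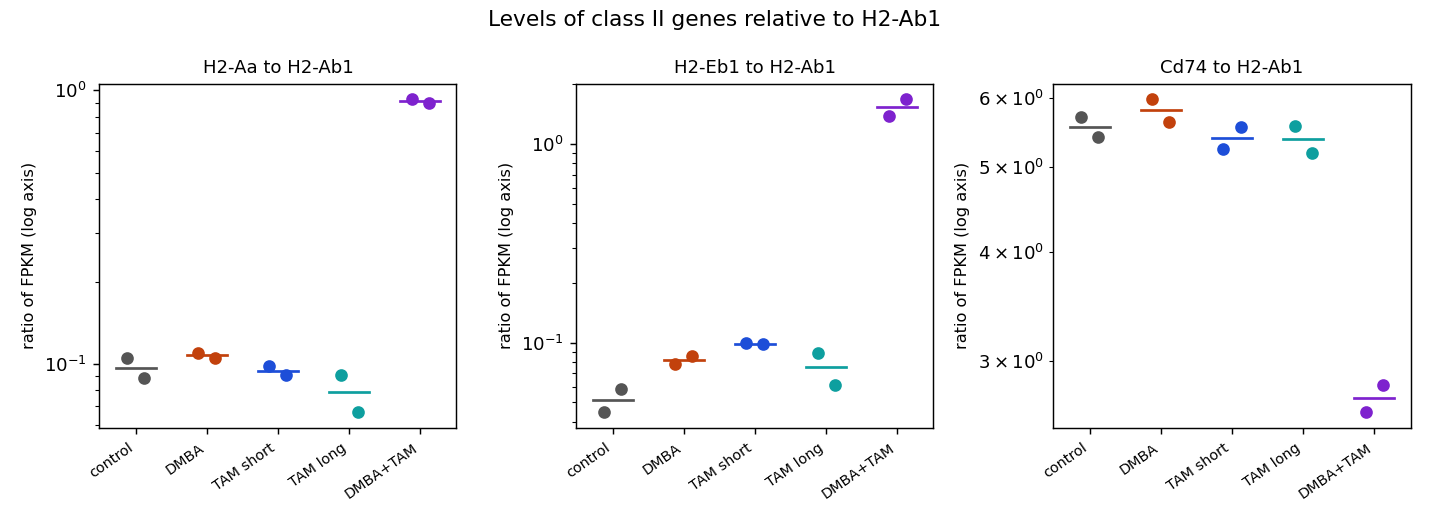
Ratio of FPKM of H2-Aa, H2-Eb1 and Cd74 to H2-Ab1 (vertical log axis) in each library, with 2 points per group and a line at the group mean. Both DMBA+TAM libraries lie above the range of the 8 others for H2-Aa (0.895 and 0.927) and H2-Eb1 (1.39 and 1.68) and below it for Cd74 (2.62 and 2.82).

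Several other genes of the complex and of the class I pathway also differed in DMBA+TAM, though H2-DMb2 did not. H2-Ea-ps was at 0 in DMBA+TAM, as given above. H2-K1, a class I heavy chain of the same complex, had 53 and 47 counts in DMBA+TAM, or 27.9 and 20.7 normalized CPM, against 489 to 1668 in the other libraries (log2 -5.95 ± 0.25 against control, adjusted p = 4.53e-08, edgeR). H2-D1 was at 1116 and 1164, with a log2 fold change of -1.55 ± 0.15 (adjusted p = 1.26e-05, edgeR). Of the 10 class I genes 9 were lower than in control, where 35.3% of all genes tested were, and Nlrc5 was not called. H2-DMb2, the neighbour and near copy of H2-DMb1, had 18.4 and 14.9 normalized CPM in DMBA+TAM and 15.0 and 17.9 in control (log2 0.01 ± 0.28, adjusted p = 0.973, edgeR). The part of H2 sequence differences from the mapped reference in these values was not tested.

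Cell type markers differed at the same time. All 10 macrophage markers rose against control, with a summed level of 4490 and 4927 normalized CPM against 164 and 183, and the receptor gene Mrc1 rose 61.5-fold (adjusted p = 2.25e-08, edgeR). The 9 dendritic cell markers summed to 148 and 178 against 10.5 and 12.5, with 7 called higher. One of the markers, Cd209a, had 36 and 43 counts in DMBA+TAM and 1 to 12 in the other 8 libraries. It passed the filter on low counts only through DMBA+TAM, so it is no support. Of the 7 T cell markers tested 5 fell and 1 rose, Cd4, which had 8.96 and 8.79 normalized CPM against 2.60 and 3.49 in control (log2 1.54 ± 0.35, adjusted p = 0.00342, edgeR). Cd3e, Cd3d, Cd3g and Cd8b1 were at 0 in both libraries. Fibroblast markers summed to 30860 and 31800 against 1294 and 1413. The class II set summed to 934 and 819 in DMBA+TAM and to 898 and 1005 in control, a sum over members that went both ways. The part of cell type in the split of the class II genes was not tested.

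Genes that act next to class II in presenting cells also differed there. Of 6 lysosomal processing genes, 5 rose in DMBA+TAM against control, where 29.0% of all genes tested were called higher. Among them was Ctss, the cathepsin that trims Cd74, with 853 and 837 normalized CPM against 189 and 209 (log2 2.09 ± 0.19, adjusted p = 5.68e-06, edgeR). The costimulatory gene Cd86 had 30.6 and 24.2 normalized CPM against 0.677 and 2.04 (log2 4.33 ± 0.51, adjusted p = 4.43e-05, edgeR). In TAM short neither was called against control: the log2 fold change was 0.49 ± 0.18 for Ctss (adjusted p = 0.103, edgeR) and for Cd86 1.19 ± 0.54 (adjusted p = 0.177, edgeR), a value close to those of Cd74 and H2-Ab1 with a wider error. Of the 6 lysosomal genes there, Lgmn was called higher (log2 0.93 ± 0.17), and Ctsl (log2 -0.77 ± 0.14) and Ifi30 (log2 -0.42 ± 0.12) were called lower; with any one library left out, 0 or 1 passed in each direction.

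**Figure D5:**
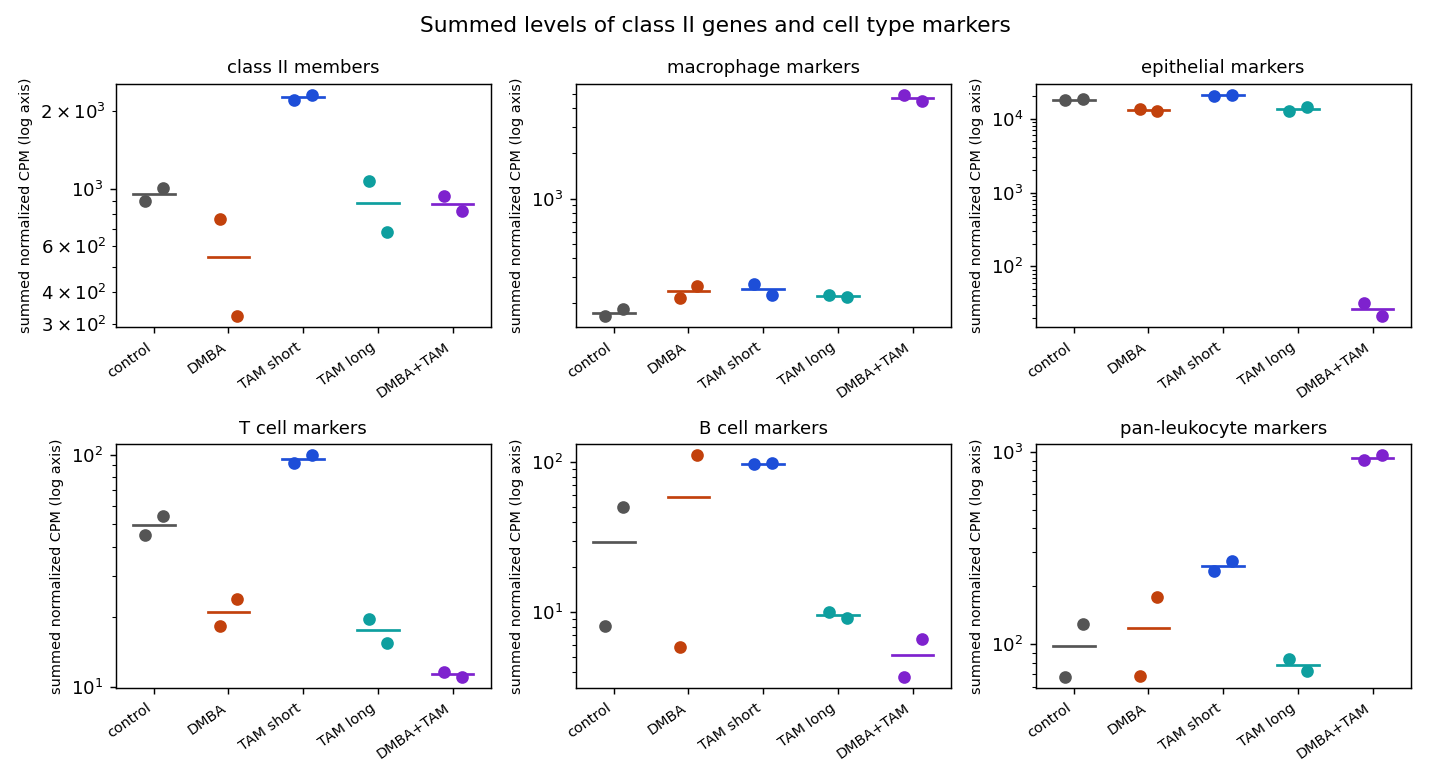
Summed normalized CPM (vertical log axes, which do not start at 0) of the 7 class II genes and of 5 marker lists in each library, with 2 points per group and a line at the group mean. In DMBA+TAM macrophage markers are the highest (4490 and 4927) and epithelial markers the lowest (21.1 and 31.6), while the class II sum (819 and 934) overlaps that of control (898 and 1005).

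Ordered by level, neighbouring groups mostly could not be told apart. For H2-Eb1 the order was DMBA+TAM, TAM short, TAM long, control and DMBA, and the first and second steps differed (adjusted p = 4.27e-05 and 0.00393, edgeR), the rest not. For H2-Aa only the step from DMBA+TAM to TAM short did (adjusted p = 0.000379, edgeR). For H2-Ab1, H2-DMa, Cd74 and Ciita only the step from TAM short to the next group passed, and for H2-DMb1 no step between neighbours did.

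Of 11045 other genes that averaged 50 counts or more, Capzb had the pattern most like the mean of the 7 genes over the 10 libraries (r = 0.948). It was followed by Ier5 (0.932), Tgm2 (0.929), Id3 (0.926), Scpep1 (0.917), Lrp12 (0.903), H2-DMb2 (0.902), Prdm1 (0.902), Il18bp (0.896) and Gltp (0.894). H2-DMb2, the second DM beta chain, was the class II gene among them, and it was called higher in TAM short than in control (log2 1.39 ± 0.24, adjusted p = 0.00427, edgeR). The other 4 class II chain genes outside the set, H2-Eb2, H2-Ea-ps, H2-Oa and H2-Ob, were not called by edgeR in that comparison, with log2 fold changes from 0.44 to 2.60; of all 5, DESeq2 called 2 and 3 had an unadjusted p under 0.05 in edgeR.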

How the data were processed

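RNA was selected by poly-A and sequenced from 2 libraries in each of 5 groups. The authors mapped reads with TopHat to GRCm38.p6 (the build in the submitters' processing notes), counted reads on exons with HTSeq, and deposited raw counts and FPKM per library. The deposited FPKM implies gene lengths that differ from the listed ones for some genes, so it was used only for levels and ratios between genes. The authors' fold changes and p-values in the table were not used. Libraries were grouped by the treatment label. The test was the quasi-likelihood test of edgeR 4.0.16 under R 4.3.3 (filterByExpr, TMM, a fit with 5 group means, Benjamini-Hochberg over 16179 genes, threshold 0.05), since no count model is stated in the study's methods. Normalized CPM divides counts by TMM totals. Alternatives included DESeq2 1.42.0. On simulated data for DMBA+TAM against control, with 200 of 16179 genes changed 4-fold, 91% were recovered, with 3.2% false among the calls. There, all libraries had the control means apart from the changed genes, the spread was the same for every gene, and genes of low level were left unchanged. In the data 10396 genes were called in this comparison, so these shares do not describe its error. Counting error only is covered by limits of 3 counts. The 7 genes are those named, list genes were given by counts, and the 10 most alike by correlation. The genes and lists were chosen with earlier results of these data known. Figures were drawn with matplotlib 3.10.9 in Python 3.11.15.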

Additional observations from a re-analysis of the deposited data

Results flagged for a closer look

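In 2 of the 7 genes the difference between DMBA+TAM and TAM long departed from that between DMBA and control (the interaction of DMBA and TAM long). The interaction was 4.43 on the log2 scale for H2-Aa (adjusted p = 0.000112, edgeR) and 4.79 for H2-Eb1 (adjusted p = 5.99e-05, edgeR), while 48.2% of all genes tested were called. With TAM short in place of TAM long it was 2.89 for H2-Aa and 3.12 for H2-Eb1. Over the 16 alternatives run it ranged from 2.89 to 5.26 for H2-Aa and from 3.12 to 5.46 for H2-Eb1, and the highest adjusted p was 0.00166 and 0.000972 (edgeR or DESeq2). H2-Ea-ps at 0, macrophage markers and epithelial markers moved with these values, and their part cannot be told apart from that of the treatment. Neither can the part of whatever Long stands for, a word that DMBA and TAM long carry and control and DMBA+TAM do not.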

How the results depend on the processing

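Depth limits DMBA+TAM most, where H2-DMb1 rests on 14 and 13 counts. H2-Aa and H2-Eb1 stayed called higher in DMBA+TAM against each other group, and for the interaction, in every alternative run. Leaving out a library leaves a group of 1, assumed to vary like the others. Causes were not tested. With the libraries left out in turn, members called ran from 0 to 6 for DMBA against control (2), 1 to 2 for TAM short against control (5), 0 to 2 for TAM long against control (0), 2 to 3 for DMBA+TAM against control (4), 0 to 3 for TAM long against DMBA (0), 4 to 7 for TAM long against TAM short (7), 2 to 4 for DMBA+TAM against TAM long (2) and 2 to 4 for the interaction (2). For DMBA against control there were 0 by library size only, 5 with no filter, 1 with only the groups compared, 1 when changes under 1 on the log2 scale were not counted, 1 with thinned counts and, chosen after seeing the data, 1 without both DMBA+TAM libraries. DMBA+TAM against control gave 2 by library size only and 2 with thinned counts, TAM long against DMBA 4 with no filter, DMBA+TAM against TAM long 6 with no filter, and the interaction 4 with TAM short in place of TAM long.

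Replicate numbers share no stated batch, and deviations of same-numbered libraries correlated at -0.041 to 0.26. With the replicate block, DMBA against control gave 4 members, and Cd74 in DMBA+TAM against DMBA turned to 0.03 (main value -0.03); TAM short against control gave 7 rather than 5.

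Directions turned only where the main value was not called, and 1 of the turned values passed the threshold: Cd74 in DMBA+TAM against DMBA was 0.76 without DMBA replicate 1 (adjusted p = 0.0251, edgeR). By library size only, log2 fold changes against control were 0.09 for H2-Eb1 and 0.23 for Ciita in DMBA, 0.01 for H2-Aa, 0.24 for H2-Ab1 and 0.21 for Cd74 in TAM long, and 0.16 for Ciita in DMBA+TAM; Cd74 was 0.11 in DMBA+TAM against DMBA and -0.10 for the interaction. With thinned counts they were 0.07 for Ciita in DMBA, 0.12 for H2-Ab1 in TAM long and 0.05 for Cd74 in DMBA+TAM against DMBA, where DESeq2 gave 0.04. With TAM short in place of TAM long the interaction was -0.18 for H2-Ab1, -1.06 for H2-DMa and -1.25 for Cd74. With libraries left out, DMBA against control ran from -0.92 to 0.16 for H2-Eb1 and -0.78 to 0.32 for Ciita. TAM long against control ran from -0.91 to 0.08 for H2-Aa, -0.38 to 0.16 for H2-Ab1, -0.15 to 0.93 for H2-Eb1, -0.98 to 0.07 for H2-DMb1 and -0.48 to 0.16 for Cd74. TAM long against DMBA ran from -0.21 to 1.19 for H2-Aa and -0.26 to 0.79 for H2-DMb1. DMBA+TAM ran from -0.01 to 0.32 for H2-Ab1 against control, -0.10 to 0.71 for H2-DMa, -0.56 to 0.76 for Cd74 and -0.68 to 0.42 for Ciita against DMBA, and -0.82 to 0.06 for H2-DMa against TAM long. The interaction ran from -0.82 to 0.23 for H2-DMb1, -0.44 to 0.90 for Cd74 and -1.04 to 0.08 for Ciita.

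Counts over all genes moved by over 1.5 times for TAM short against control (2317), with 4317 for only the groups compared, 1172 when changes under 1 on the log2 scale were not counted and 1275 with thinned counts, and for TAM long against DMBA (437), with 870 by DESeq2, 1615 with no filter, 29, 221 and 204. Leaving out single libraries also moved them by over 1.5 times for TAM short against control, whichever library was left out. For TAM long against DMBA, TAM short or control, this held for some of the libraries left out. Not counting changes under 1 on the log2 scale, or thinning, gave 4395 and 4917 for DMBA against control (7735), 4221 and 4573 for TAM long against control (7444), 4385 and 4553 for TAM short against DMBA (7476) and 3919 and 4014 for TAM long against TAM short (6835).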
